A study of Homo sapiens with 6 samples.

Results

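Sites that nascent-strand sequencing listed in both siORCA samples and in neither control sample were examined where they lay next to an origin region that every sample shared. Peaks of all 4 nascent-strand samples on chromosomes 1 to 22 and X were pooled and merged wherever they touched or overlapped, which gave 534833 regions. Of these, 57116 held peaks of every sample and are called constant regions, and 29106 (5.44% of all regions) held peaks of both siORCA samples and no control peak. The sites described here are the 5400 of those 29106 siORCA-only regions whose nearest edge lay within 2 kb of a constant region. The members were chosen from the same peaks, so their presence in siORCA and absence from control is the rule and not a finding.

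The samples are U2OS cells, an established human osteosarcoma line, transfected with the control siRNA gl3 (control 1 and control 2) or with siORCA (siORCA 1 and siORCA 2). The labels also list 2 genomic DNA samples, which were not analysed here. Both groups share the cell line and the transfection and differ in the siRNA. The labels do not say whether replicates came from separate cultures, so the spread between samples may be technical, and a reduction of ORCA cannot be checked in a DNA assay.

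Replication starts at origins, which the origin recognition complex marks before S phase and where the replicative helicase is loaded. ORCA, encoded by LRWD1, binds this complex and helps to keep it on chromatin. Human origins often lie in zones, where several sites near each other can start replication and not all are used in each cell cycle. Nascent-strand sequencing reads short new DNA made on either side of a start, so a listed peak marks a stretch around a start and not a single base.

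The lists differed in size, which touches every count below. The control lists had 181132 and 235444 peaks on the chromosomes used and the siORCA lists 329933 and 198486, covering between 58.5 and 86.1 Mb. No read counts are in the lists, so the depth is unknown. The siORCA 1 list was by far the longest, and its part in the number of members was not tested. The counts of pairs, single-sample sites, chromosomes and stretches were therefore also made with every list shortened from its weakest peak to 58.5 Mb. The distance, width, edge and spacing counts rest on the lists as deposited.

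At 5400, the siORCA-only sites beside constant regions outnumbered the equally placed sites of every other pair of samples. Sites found only in control 1 and control 2 and placed the same way numbered 1240. The crossed pairs, which join 1 control with 1 siORCA sample, had 3434 (control 2 and siORCA 1), 2351 (control 1 and siORCA 1), 1662 (control 1 and siORCA 2) and 1546 (control 2 and siORCA 2). Over all 534833 regions, whether or not beside a constant one, the control pair made up 1.67% and the crossed pairs 4.31%, 2.84%, 1.87% and 1.93% in that order, against 5.44% for the siORCA pair. Beside constant regions the siORCA pair thus had 4.35 times as many as the control pair and 1.57 times as many as the highest crossed pair. Away from constant regions, beyond 2 kb, the ratio of siORCA-only to control-only sites was 3.07.

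The excess was smaller with lists of equal length. With every list at the same covered length, the siORCA pair had 2759 such sites, the control pair 1402, and the pair of control 1 and siORCA 2 had 2420. The other crossed pairs had between 1347 and 1611. Of the 5400 members, 2528 (46.8%) remained members at that length, 1898 were left in 1 siORCA list only, and 402 were in no list. Of the 1898, 1482 were left in siORCA 2 alone and 416 in siORCA 1 alone. The ratio to the control pair fell from 4.35 to 1.97.

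The share of a pair's own sites that lay beside constant regions sets the number against all sites of the pair, though its own tie to list size was not tested. It was 18.6% for the siORCA pair (5400 of 29106; Wilson 95% interval 18.1% to 19.0%, which covers counting error only). For the control pair it was 13.8% (interval 13.1% to 14.6%), and for the crossed pairs it ran from 14.9% to 16.6%. The siORCA share was the highest of the 6 pairs in the lists as deposited. At the same covered length it was 15.5%, against 12.7% for the control pair and 15.6% for control 1 and siORCA 2, so that it was no longer the highest. Leaving out siORCA 1 or siORCA 2, which turns the siORCA-only set into sites of a single list, put the siORCA share below the control share, with differences of −0.21 and −3.42 percentage points. Without control 1 or control 2 the difference was 12.1 and 10.3 points, but there the control-only set in turn became sites of a single list. The sets compared were thus unlike in each of these.

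**Figure D1:**
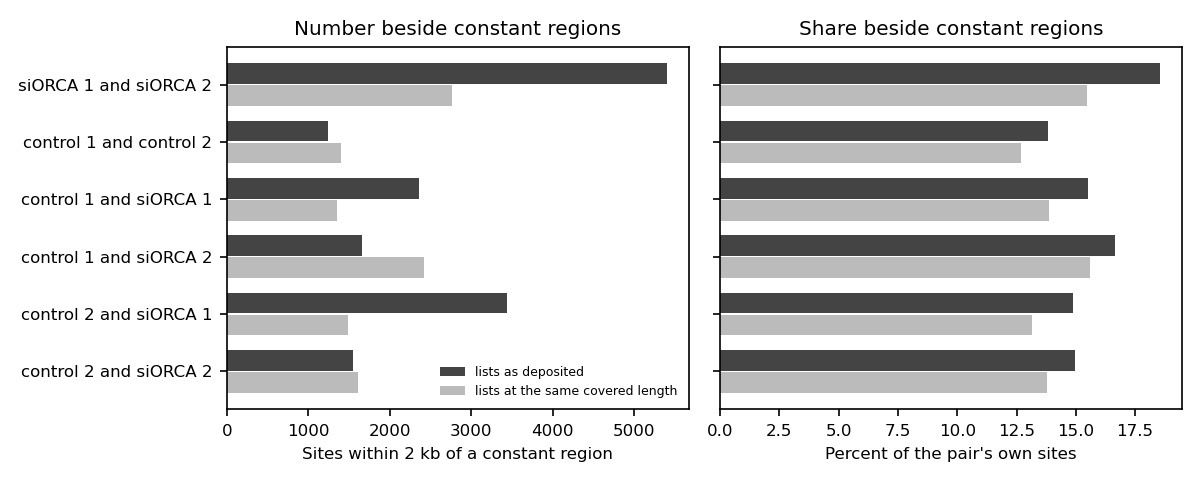
Bars give, for each pair of samples, the number of sites found only in that pair within 2 kb of a constant region (left) and the percent of the pair's own sites that this is (right), for the lists as deposited and for lists at the same covered length. The siORCA pair stands at 5400 and 18.6% as deposited, and at 2759 and 15.5% at the same length, where control 1 and siORCA 2 reach 2420 and 15.6%.

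Read from the constant regions outward, 64641 regions that were not constant lay within 2 kb of one. Of these, 8.35% were siORCA-only, against 5.74% of the 413076 such regions farther out. The control pair made up 1.92% beside constant regions and 1.87% beyond. The crossed pairs made up 5.31%, 3.64%, 2.57% and 2.39% beside and 4.75%, 3.10%, 2.02% and 2.12% beyond, in the order control 2 and siORCA 1, control 1 and siORCA 1, control 1 and siORCA 2, control 2 and siORCA 2. All 6 pairs were thus a larger part of the sites near constant regions than of those far away. The step was widest for the siORCA pair in these lists, as a description of 4 samples.

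Sites found in 1 sample only were not used to choose the members, but they come from the same lists and constant regions, so their shares are not independent of the counts above. Such sites lay within 2 kb of a constant region in 10.4% of cases in control 1 (4938 of 47419) and 9.92% in control 2 (9343 of 94156). The shares were 11.9% in siORCA 1 (17219 of 144304) and 13.4% in siORCA 2 (4750 of 35452). Both siORCA samples lay above both controls. Within each group the sample with fewer single-sample sites had the higher share, and the part of that number in the shares was not tested. The control mean was 10.2 ± 0.347% and the siORCA mean 12.7 ± 1.04% (SD over n = 2 samples a group). By a two-sided exact permutation test p was 0.333, which is as low as 2 samples against 2 can reach. At the same covered length the shares were 9.33% and 8.86% in control and 10.4% and 11.6% in siORCA. Keeping only peaks whose −log10 q reached 3, control 1 (6.82%) lay between siORCA 1 (6.71%) and siORCA 2 (7.55%), and the groups overlapped (exact permutation p = 0.667).

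The density of siORCA-only sites was highest between 500 and 1000 bp from constant regions, lower closer in, and fell from there outward without an edge at 2 kb. Per Mb of sequence at a given distance there were 4.55 siORCA-only sites under 250 bp, 34.9 at 250 to 500 bp, 36.7 at 500 to 1000 bp and 29.2 at 1 to 2 kb. Farther out there were 24.7 at 2 to 3 kb, 16.7 at 8 to 10 kb and 10.3 at 20 to 30 kb. Relative to its own density at 20 to 30 kb, the siORCA pair stood at 3.57 at 500 to 1000 bp. The other pairs also lay above their value at 20 to 30 kb, with 2.71 for the control pair and 2.64 to 3.24 for the crossed pairs at 500 to 1000 bp. Constant regions thus had more sites of every pair around them, and the siORCA pair the most in the lists as deposited.

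**Figure D2:**
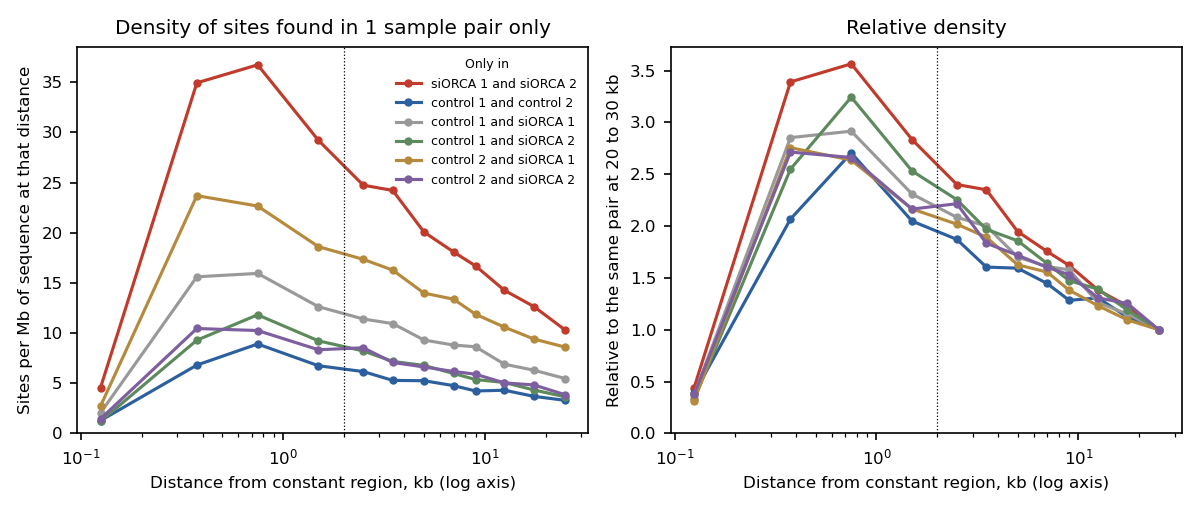
Left, sites found only in 1 pair of samples per Mb of sequence at each distance from the nearest constant region; right, the same divided by the pair's own value at 20 to 30 kb; the dotted line marks 2 kb and the distance axes are logarithmic. The siORCA pair peaks at 36.7 sites per Mb (3.57 relative) at 500 to 1000 bp, above the other pairs, and all 6 pairs are lowest under 250 bp.

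Within the 2 kb, the median distance of the members was 946.5 bp, and 2865 (53.1%) lay under 1 kb from the constant region. Classes of 250 bp held 929 members from 250 to 500 bp, 1022 from 500 to 750 bp, 784 from 750 to 1000 bp and then fewer in each class, down to 546 in the last. The class under 250 bp held 130. No list had 2 peaks closer to each other than 330 bp (siORCA 1) to 428 bp (control 1), so a site can come nearer than that only to an edge set by another sample. In 119 of the 130 nearest members the facing edge of the constant region was set by a control peak. Over all members a control peak set that edge in 44.4%. For the other pairs a peak of an absent sample set it in 44.4% to 55.8% of sites. Under 250 bp it did so in 30 of 36 for the control pair. In the crossed pairs it was 44 of 58 (control 1 and siORCA 1) and 31 of 34 (control 1 and siORCA 2). It was 57 of 77 for control 2 and siORCA 1 and 36 of 41 for control 2 and siORCA 2.

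Members lay evenly on both sides, 2665 on the lower-coordinate and 2735 on the higher-coordinate side of the nearest constant region. In 655 (12.1%) a constant region was within 2 kb on both sides. The members touched 5797 constant regions, 10.1% of all. Of those, 5544 had 1 member, 248 had 2 and 5 had 3 or more, and 166 had members on both sides. A single extra site on 1 side was therefore the usual picture. Both a member and a control-only site were beside 127 constant regions, 2.19% of the 5797, while 2.35% of all constant regions had a control-only site beside them.

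The wider a constant region, the more often it had a member beside it. Split by width into 4 classes of nearly equal number, 8.43% had one in the narrowest class (107 to 414 bp), then 9.57%, 10.9% and 11.7% in the widest (1047 to 10396 bp). Control-only sites followed the same order, at 1.91%, 2.23%, 2.53% and 2.72%. The ratio of the counts ranged from 4.30 to 4.41 over the classes, so the siORCA pair had about the same excess beside narrow and wide regions.

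The members were wider than siORCA-only sites farther out, as sites beside constant regions were in every pair. Their regions had a median width of 299 bp, against 246 bp for siORCA-only sites beyond 2 kb. In the other pairs the medians were 315 to 366 bp beside constant regions and 274 to 302 bp beyond, so the members had the lowest median of the sites beside. The length listed was at a median of 195 bp in siORCA 1 and 190 bp in siORCA 2, and 0 in both controls by the rule. Neither siORCA list gave the longer stretch throughout, since 2770 members were longer in siORCA 1 and 2606 in siORCA 2. All but 2 of the 5400 had bases listed in both siORCA samples at once, and in 50.7% such bases made up at least 50% of the site. Almost all members, 5315, were 1 peak in each list.

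Fold enrichment and −log10 q are the authors' values for each peak and are read within a list. The median fold of members was 4.76 in siORCA 1, at the 55.6th percentile of that list, and 3.94 in siORCA 2, at the 38.9th percentile. In 298 members (5.52%) the peak was at or above the 75th percentile of fold in both lists. The same count was not made for other sites, so it is not read as a trait of the members. A −log10 q of at least 3 in both lists was reached by 1986 members (36.8%), and by 36.5% of siORCA-only sites beyond 2 kb, so nearness to a constant region did not go with stronger peaks in these lists. Among the equally placed sites the same limit was reached in both samples by 9.68% for the control pair and by 15.4% to 25.3% for the crossed pairs. Peaks past this limit numbered 64989 and 97853 in the control lists and 213149 and 112779 in the siORCA lists, and the part of that difference in these shares was not tested.

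Absence from the control lists did not mean that control peaks were far. A control peak lay within 500 bp of 1385 members (25.6%) and within 1 kb of 3563 (66.0%), at a median distance of 751.5 bp. For the other pairs the nearest peak of an absent sample was within 500 bp in 24.9% to 33.2% of sites. The constant region itself holds control peaks, so some closeness follows from the rule.

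The member with the most bases in both siORCA lists lay on chromosome 12 from 47943097 to 47944535 on T2T-CHM13, the build of all coordinates given here. In siORCA 1 and siORCA 2 it spanned 1428 and 1426 bp, of which 1415 bp were shared, at 5.21-fold and 4.19-fold. The constant region 444 bp before it, from 47941534 to 47942652, was listed over 602 bp in control 1, 603 bp in control 2, 1038 bp in siORCA 1 and 1106 bp in siORCA 2. At this place both siORCA samples thus had a longer constant peak and a second, longer one next to it. A second member of the longest 8 was on the same chromosome from 47745101 to 47746100, listed over 946 bp and 1000 bp in siORCA 1 and siORCA 2.

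On chromosome 2, the site from 232149941 to 232151683 spanned 1336 bp and 1618 bp in siORCA 1 and siORCA 2. It lay 1539 bp from a constant region that was listed over 150 and 505 bp in the controls and 239 and 208 bp in siORCA, and so was far longer than that region in either siORCA sample. The site from 92057740 to 92059063 was listed over 1324 and 1187 bp, and the one from 95791255 to 95792257 over 1003 and 988 bp. On chromosome 3, the site from 137082443 to 137084074 was listed over 1576 and 1178 bp. On chromosome 1, the site from 159054439 to 159056052 was listed over 1274 and 1381 bp, and at 11.8-fold it was in the 94.0th percentile of siORCA 1 but at 4.18-fold in the 48.9th of siORCA 2. On chromosome 7, the site from 45547803 to 45549043 was listed over 1241 and 980 bp. Their constant neighbours did not share a direction: the one on chromosome 7 was listed over 745 and 748 bp in control against 1156 and 786 bp in siORCA, and that of the site at 95791255 over 1361 and 1371 against 1366 and 1275 bp.

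**Figure D3:**
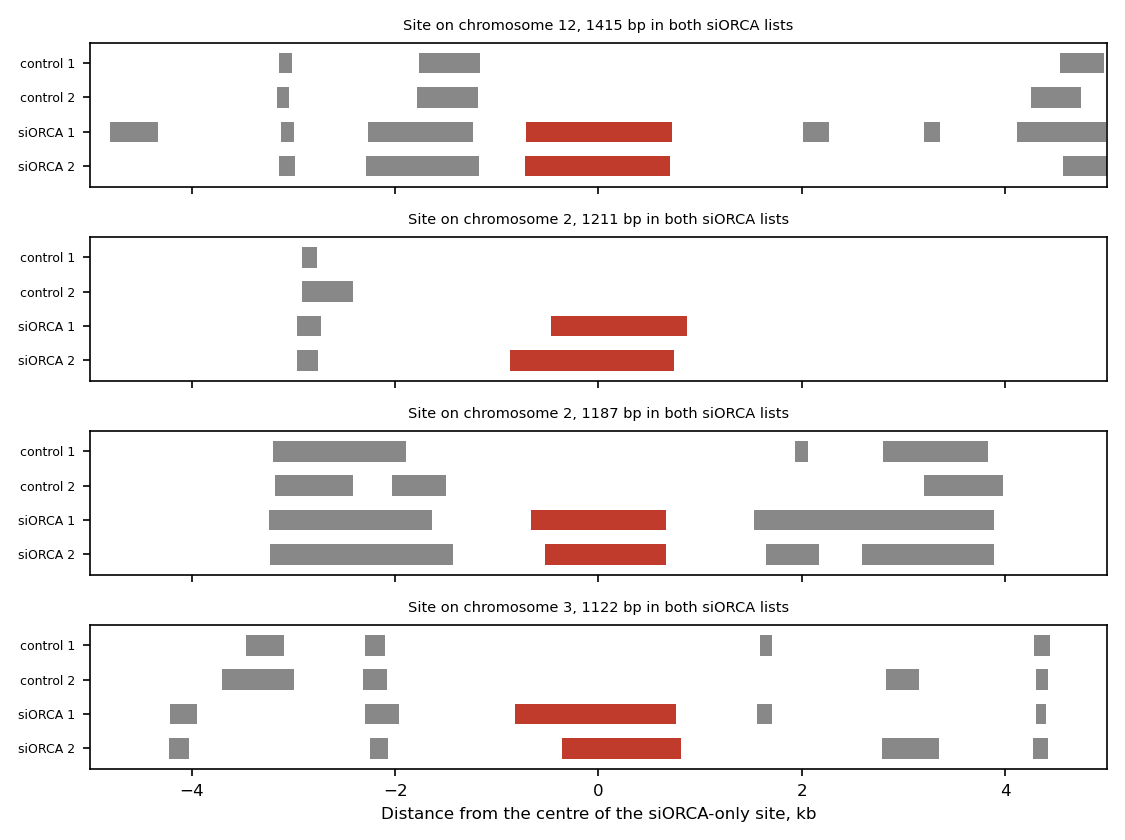
Listed peaks of each sample within 5 kb of the centre of the 4 members with the most bases in both siORCA lists (1415, 1211, 1187 and 1122 bp), drawn to scale by distance in kb. Red marks the peaks of the member, present in both siORCA rows and in neither control row, and grey marks all other peaks.

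The sites nearest to the limit of 2 kb are given on both sides of it as examples. With 3 sites a side, no comparison across the limit was made. The 3 members farthest from a constant region, all at 2000 bp, were on chromosome 1 from 31532608 to 31532767, chromosome 3 from 66239539 to 66239709 and chromosome 14 from 61936172 to 61936330. They were listed over 160 and 112 bp, 103 and 171 bp, and 150 and 159 bp in siORCA 1 and siORCA 2. The nearest siORCA-only sites outside were on chromosome 3 from 141872383 to 141872656 and chromosome 12 from 57403796 to 57404009, both at 2001 bp, and on chromosome 2 from 217345232 to 217345623 at 2002 bp. They were listed over 128 and 186 bp, 170 and 194 bp, and 392 and 184 bp.

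The most members beside a constant region was 3, which 5 regions had, and the first 3 of these by position are described. On chromosome 1, the region from 9266524 to 9266936 had members 1313 and 307 bp before it and 484 bp after it. On chromosome 3, the region from 51996966 to 51999098 had members at 1403 bp on 1 side and at 97 and 1826 bp on the other, and the region from 125630588 to 125631609 had them at 886 bp and at 1023 and 1742 bp. The first of these was listed over 121 and 386 bp in control and 83 and 321 bp in siORCA, so the region itself was not longer in siORCA. The second was listed over 2133 and 131 bp in control and 625 and 1625 bp in siORCA, and the third over 824 and 578 bp against 995 and 656 bp, so the groups overlapped in these 3.

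Whether the constant regions beside members were also listed over more bases in siORCA was tested over all 57116 constant regions with limma, on log2 of the covered length plus 50 bp, centred on each sample's median. None of the 5797 regions beside members passed an adjusted p of 0.05 in either direction (0 called, as 0% of all constant regions were). At an unadjusted p under 0.05 in limma there were 347 of 5797 (5.99%), against 5.85% of all constant regions. The median log2 difference (siORCA minus control) was −0.00 beside members and −0.04 over all. Both siORCA samples were above both controls in 1031 (17.8%) beside members and in 15.6% of all constant regions, and below both in 1086 (18.7%) and in 20.1% of all. These shares lay near those of all constant regions, leaning to longer in siORCA, and the lean was not tested. Nor was the part in it of choosing regions by siORCA-only peaks. Beside the sites found only in control 1 and siORCA 1, they were 17.6% above and 19.4% below. Beside control-only sites they were 16.9% and 19.8%. They were 16.6% and 19.6% for control 1 and siORCA 2, and 16.1% and 19.7% for control 2 and siORCA 2. For control 2 and siORCA 1 they were 15.7% and 20.9%. The lean was thus not particular to the regions beside members. Tested on simulated data for this comparison over 57116 regions, the fit recovered 4% of regions given a log2 difference of 1, 18% at 2, 62% at 3 and 94% at 4, with 8 false calls, so most single regions with a difference of 1 or 2 would be missed.

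The regions with the smallest p are given with their values. On chromosome 17 from 29934494 to 29936925, 368 and 303 bp were listed in control 1 and control 2 and 2217 and 2247 bp in siORCA 1 and siORCA 2, which is 2.40 on the log2 scale (SE 0.36) and had an adjusted p of 0.847 in limma. On chromosome 7 from 1081319 to 1083304, the lengths were 126, 105, 1364 and 1534 bp in the same order (log2 difference 3.01, SE 0.45). On chromosome 2 from 90143592 to 90146595, they were 798, 819, 2924 and 2970 bp (log2 difference 1.63, SE 0.28). The groups did not overlap in any of these, and the siORCA replicates lay close together. In the other direction, a region on chromosome 11 from 102640601 to 102641517 was listed over 813 and 519 bp in control and 102 and 114 bp in siORCA (log2 difference −2.32, SE 0.47). A region on chromosome 9 from 143097765 to 143098784 was listed over 1003, 554, 102 and 131 bp (−2.44, SE 0.51), and one on chromosome 16 from 63279258 to 63280265 over 912, 1008, 250 and 188 bp (−2.09, SE 0.47). All 6 had the same adjusted p of 0.847 in limma, so none was called.

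Summed over the constant regions beside members, the share of all constant length was 10.9% and 10.6% in the controls and 11.2% and 11.1% in the siORCA samples. The siORCA samples lay above the controls, with means of 11.1 ± 0.0644% and 10.8 ± 0.196% (SD over n = 2 samples a group), again at the lowest p that an exact permutation test can give here, 0.333. The difference was 0.346 percentage points. These constant regions were chosen by siORCA-only peaks beside them, and the part of that choice in the difference was not tested. The same share was not computed for regions beside the sites of other pairs.

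Members were found on all 23 chromosomes used, at 9.45 per 100 constant regions over the genome. The rate ran from 5.78 on chromosome 4 (66 members beside 1142 constant regions) to 11.6 on chromosome 17 (452 beside 3890). Chromosomes 20 and 22 followed at 10.8 each, chromosome 19 had 8.53, and chromosomes 13 and 18 had 6.21 and 6.24. As deposited, the rate was above every crossed pair on all 23 chromosomes. At the same covered length it was above the control pair on all 23 but above every crossed pair on 13. The share of a chromosome's siORCA-only sites that lay beside constant regions varied more, from 7.68% on chromosome 4 to 33.4% on chromosome 22. It was 30.2% on chromosome 19 and 28.9% on chromosome 17. This share was not computed by chromosome for the other pairs, so it is not read as a trait of siORCA-only sites. The part in it of how densely constant regions lie on a chromosome was not tested.

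**Figure D4:**
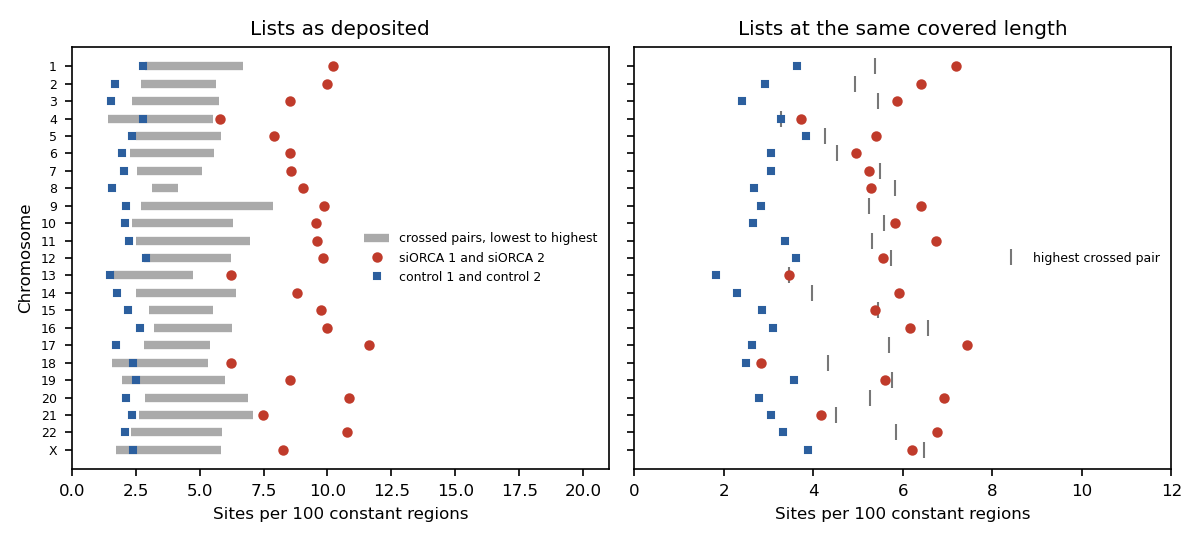
Sites within 2 kb of a constant region per 100 constant regions on each chromosome, for the siORCA pair (red), the control pair (blue) and the crossed pairs (grey: lowest to highest on the left, the highest on the right), with lists as deposited (left) and at the same covered length (right). The siORCA pair runs from 5.78 on chromosome 4 to 11.6 on chromosome 17 as deposited, above all crossed pairs, and is above the highest crossed pair on 13 of 23 chromosomes at the same length.

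At the scale of 1 Mb, 653 windows held at least 30 constant regions, with a median of 10.2 members per 100 constant regions, and 12 of these windows had none. Windows far above the median were picked after their values were seen. The highest was on chromosome 1 from 160 to 161 Mb, with 20 members beside 49 constant regions (40.8 per 100), 2 control-only sites and between 0 and 5 sites of the crossed pairs. At the same covered length it had 20 members, not all the same sites, beside 46 constant regions, and the crossed pairs had at most 1. The window on chromosome 10 from 43 to 44 Mb had 13 members beside 47 constant regions (27.7 per 100) and no control-only site, and from 43 to 46 Mb there were 35 members beside 172 constant regions, 3 control-only sites and 1 to 4 of each crossed pair. At the same covered length that stretch held 19 members, 1 control-only site and 2 to 5 of each crossed pair. Chromosome 17 from 21 to 22 Mb (15 members beside 59) and chromosome 11 from 70 to 71 Mb (20 beside 82) came next, with 2 control-only sites each and up to 5 sites of a crossed pair. At the same covered length the first had 10 members and 3 control-only sites, and the second had 12 members, 4 control-only sites and up to 6 of a crossed pair.

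In the window on chromosome 1, 16 of the 20 members lay within 148.0 kb, from 160585316 to 160733327, and they resembled each other. They were 273 to 432 bp wide, and 14 of 16 lay on the lower-coordinate side of their constant region, at a median distance of 583 bp. Many were spaced at a fixed step: 12 of the 16 had another of these members 7.40 kb away (within 150 bp), and the single steps ranged from 7344 to 7451 bp. Longer steps fell close to multiples of that step. Of the 17 constant regions in the stretch, 14 also had another at this step. Among all 5400 members only 11 sets of 3 were spaced equally within 150 bp at steps of 1 to 30 kb. Of these, 7 were in this stretch. The equally placed sites of the other pairs, 1240 to 3434 in number, gave at most 2 sets over the genome. The part of the number of sites in these counts was not tested. Whether sites at this step share a sequence was not tested, nor do the sources used here say how reads that match several places were handled, so the 16 may not be independent sites. Each of them is counted singly in the numbers given here.

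Across this stretch, peaks covered 5.70 kb in control 1, 4.18 kb in control 2, 22.3 kb in siORCA 1 and 14.3 kb in siORCA 2. The members were listed over 273 to 403 bp in siORCA 1 and 134 to 321 bp in siORCA 2. Both siORCA samples thus covered more than both controls. The stretch lies in a window picked for its high rate of members and runs from the first to the last of them. Members have siORCA peaks and no control peak by the rule, so some of this excess follows from the choice. How much does was not tested, nor was the part of list length. Of 78 merged regions there, 28 were siORCA-only and 1 was control-only. Over all merged regions the shares were 5.44% and 1.67%. The 28 include the members of the stretch, so this contrast also follows in part from the choice. The other 4 members of the 1 Mb window lay outside this stretch.

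**Figure D5:**
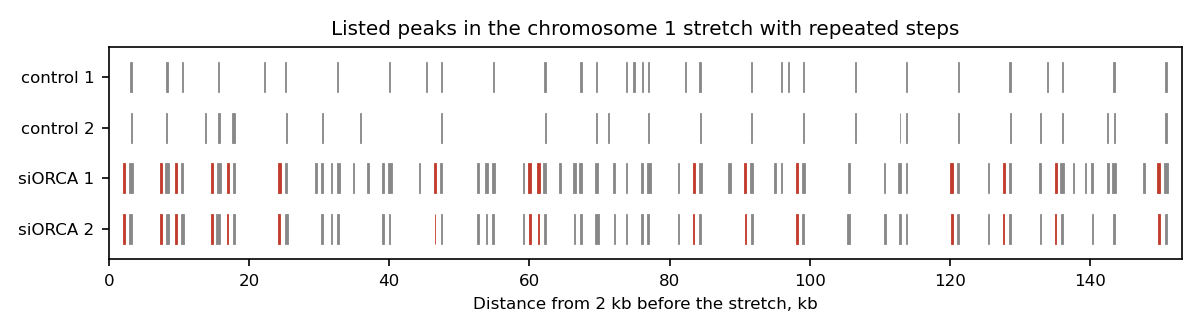
Listed peaks of each sample along the 148.0 kb stretch of chromosome 1, extended by 2 kb at each end, by distance in kb from the left end of the plot. Red marks the 16 siORCA-only sites beside constant regions, of which 12 have another at a step of 7.40 kb, and grey marks all other peaks.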

How the data were processed

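The broad peaks of each nascent-strand sample are a list of their own, called sample by sample. BWA, SAMtools and MACS2 on T2T-CHM13 are named per the submitters' processing notes; the sources used here do not give versions, settings or the background. The deposited lists give each peak a score, a fold enrichment (a ratio), a −log10 p-value and a −log10 q-value; the lowest deposited −log10 q was 1.30. Peaks on chromosomes 1 to 22 and X were merged where they touched, and distances are bases between edges.

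Covered length was tested with limma 3.58.1 in R 4.3.3 (lmFit, eBayes with trend, Benjamini-Hochberg adjustment). Single values were compared by exact permutation over samples. Regions, counts and plots were made in Python 3.11.15 with numpy 2.4.6, pandas 2.3.3, scipy 1.17.1 and matplotlib 3.10.9. The members and the rules for naming regions were chosen with earlier results of these data known. Named members are the 8 with the most bases in both siORCA lists (chromosome 8 left out), the 3 nearest to 2 kb on each side, the 3 constant regions with the most members, and the 3 constant regions with the smallest p in each direction. Alternatives were a −log10 q of at least 3, lists at the same covered length, merging over 1 kb, distances of 1 and 5 kb, a larger overlap, other scalings, a pseudocount of 250 bp, a filter at 200 bp, the replicate block, and each replicate left out. No genome or annotation of T2T-CHM13 was used here, so no sequence is printed and positions carry no gene names.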

Additional observations from a re-analysis of the deposited data

How the results depend on the processing

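The number of siORCA-only sites beside constant regions, 5400, was 2824 with a −log10 q of at least 3, 2759 with lists at the same covered length, 2547 with peaks merged over 1 kb, 2869 within 1 kb and 10086 within 5 kb, and their share was 10.7%, 15.5%, 12.2%, 9.86% and 34.7% in that order. With each replicate left out, the number ranged from 11369 (without siORCA 1) to 25880 (without siORCA 2) and the share from 14.6% to 25.7%; fewer lists have to agree in these. The share minus that of the control pair, 4.70 percentage points, was 2.52 with the stricter lists, 2.78 at the same covered length, 2.53 within 1 kb and 8.38 within 5 kb. It ranged from −3.42 without siORCA 2, and −0.21 without siORCA 1, to 12.1 without control 1. With a replicate left out, the set of its group rests on a single list while that of the other group still needs both. The share minus that of the highest crossed pair, 1.91 points, was 0.418 with the stricter lists and reversed to −0.12 at the same covered length. The ratio to control-only sites, 4.35, was 17.5 with the stricter lists and 1.97 at the same covered length, and from 0.955 (without control 1) to 8.33 (without siORCA 2) with each replicate left out. The difference in single-sample sites kept its direction in 9 of 9 alternatives, and that in summed covered length in 8 of 8. The regions summed were chosen by siORCA-only peaks in each of these 8, so the kept direction is not separate support. No constant region beside members passed in limma in any of 11 alternatives (0 called in each), and the 6 named ones kept their direction wherever they were found. With the replicate block there were also 0 called, with 303 at an unadjusted p under 0.05 in place of 347. Same-numbered samples did not deviate together in covered length (correlation −0.05 over 57116 regions). This measure cannot show whether they were prepared together. Depth is unknown, and it limits every count of sites that are absent from a list.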

Other observations

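Sites that were missing from a single sample lay beside constant regions more often when the missing sample was a control. Of the sites in both siORCA samples and control 1, 23.2% (5393 of 23263) were within 2 kb of a constant region, and of those in both siORCA samples and control 2, 20.9% (4365 of 20912). Of the sites in both controls and 1 siORCA sample, 19.2% were there with siORCA 1 (1452 of 7571) and 19.2% with siORCA 2 (1548 of 8057). Constant regions lay within 2 kb of another constant region in 30.6% of cases. The shares rose with the number of samples that hold a site, from 9.92% to 13.4% for 1 sample and 13.8% to 18.6% for 2 samples. These differences were not tested.

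With a −log10 q of at least 3, 919 of the 5400 members (17.0%) remained members, 1067 were siORCA-only but no longer within 2 kb of a constant region, and 1011 were in no list. In 1880 the site was left in siORCA 1 alone and in 523 in siORCA 2 alone.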
